A study of Paralichthys olivaceus with 6 samples.

Results

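The 4 receptors and 1 kinase subunit described here are ones through which hormones and nerves act on pigment cells, and their mRNA was measured in the skin of the Japanese flounder (*Paralichthys olivaceus*). They were the melanocortin receptor MC1R (GS_007378), the adrenergic receptor ADRA2B (GS_007143), the corticotropin-releasing factor receptor CRHR1 (GS_003202), the dopamine receptor DRD5L (GS_002681) and PRKAR1B (GS_011724), a regulatory subunit of protein kinase A, the kinase that cAMP activates. They were picked by gene ID for these roles and are 5 of the 22498 genes of the count table. The names are matches to proteins of other species given in the study's own tables, and all 5 genes stand there in a list of genes changed in these same libraries.

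The libraries came from the skin of the ocular side, the pigmented upper side of a flatfish. PO_con1, PO_con2 and PO_con3 were from normally pigmented fish, and PO_alb1, PO_alb2 and PO_alb3 were from albino fish, which lack pigment on that side. All 6 fish belonged to 1 full-sib family, were 5 months old and had received no treatment that the sources name, so the groups differed by phenotype and 1 family limits what they stand for. Each fish gave 1 library, and no genotype or mutation is given for the albino fish.

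Fish darken and pale by moving pigment granules inside pigment cells and, more slowly, by making more or less pigment. Melanocortins act on MC1R, which stimulates adenylate cyclase, and the cAMP formed releases the catalytic subunits of protein kinase A from their regulatory subunits, disperses granules and turns on melanin synthesis. Alpha-adrenergic receptors of the ADRA2B type act through an inhibitory G protein, lower cAMP and gather the granules, which is how noradrenaline from sympathetic nerves pales many fish. CRHR1, the receptor of the stress axis, and D1-type dopamine receptors, to which DRD5L belongs, both raise cAMP.

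The libraries held 17905084 to 20025047 counts each, and the 10 most abundant genes took 25.1% to 37.3% of them, so counts were normalized by TMM (factors 0.791 to 1.27). Of 16260 genes tested with edgeR, 148 were lower and 21 higher in albino skin at an adjusted p under 0.05, and the median log2 fold change over all of them was 0.01. Tissue markers were not level between the groups, but all of them stand in the study's list of genes changed in these same libraries. That they differ, and in which direction, thus follows from the choice and does not measure the make-up of the tissue. The 8 melanophore markers (TYR, PMEL and others) summed to 64.4 to 106 RPKM (reads scaled by coding length and by the total counts of the library) in normal and 2.13 to 6.33 in albino fish, and 7 of 8 were called lower. No melanophore marker was at 0 counts in the albino group as a whole. The 6 xanthophore markers, genes of yellow pigment synthesis, summed to 153 to 408 RPKM in normal and 0.534 to 1.04 in albino fish, with 6 of 6 called lower and 1 copy of GCH1 at 0 in the albino group. The 4 muscle genes summed to 648 to 932 RPKM in normal and 1526 to 1747 in albino fish, with 1 of 4 called higher (METTL21C). Most of that sum was DES, which was not called (edgeR adjusted p = 0.329). The 2 keratins summed to 480 to 1181 against 153 to 333 RPKM, with 1 of 2 called lower. Most of that sum was the KRT13 copy GS_014679, which was not called (edgeR adjusted p = 0.0763). The 3 neuronal genes summed to 4.35 to 12.4 against 1.10 to 1.39 RPKM, with 2 of the 2 tested called lower. All these lists move with the comparison, and their part in the values of the 5 genes was not tested. In bulk skin, fewer cells of a type and less RNA per cell cannot be told apart.

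All 5 genes had lower normalized counts in every albino fish than in any normal fish. ADRA2B and PRKAR1B passed the test across all genes, at 3.31% and 5.46% of their normal level, whereas CRHR1, MC1R and DRD5L did not, at 24.2%, 14.5% and 10.6%. Thus 2 of 5 were called lower, where 0.91% of all genes tested were. Groups that do not overlap, as in 5 of 5 here, were seen with lower albino values in 7.47% of all genes tested. Since the study listed these genes as changed on the same fish, neither count is independent evidence of a direction. The median log2 fold change of the 5 genes was -3.29.

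**Figure D1:**
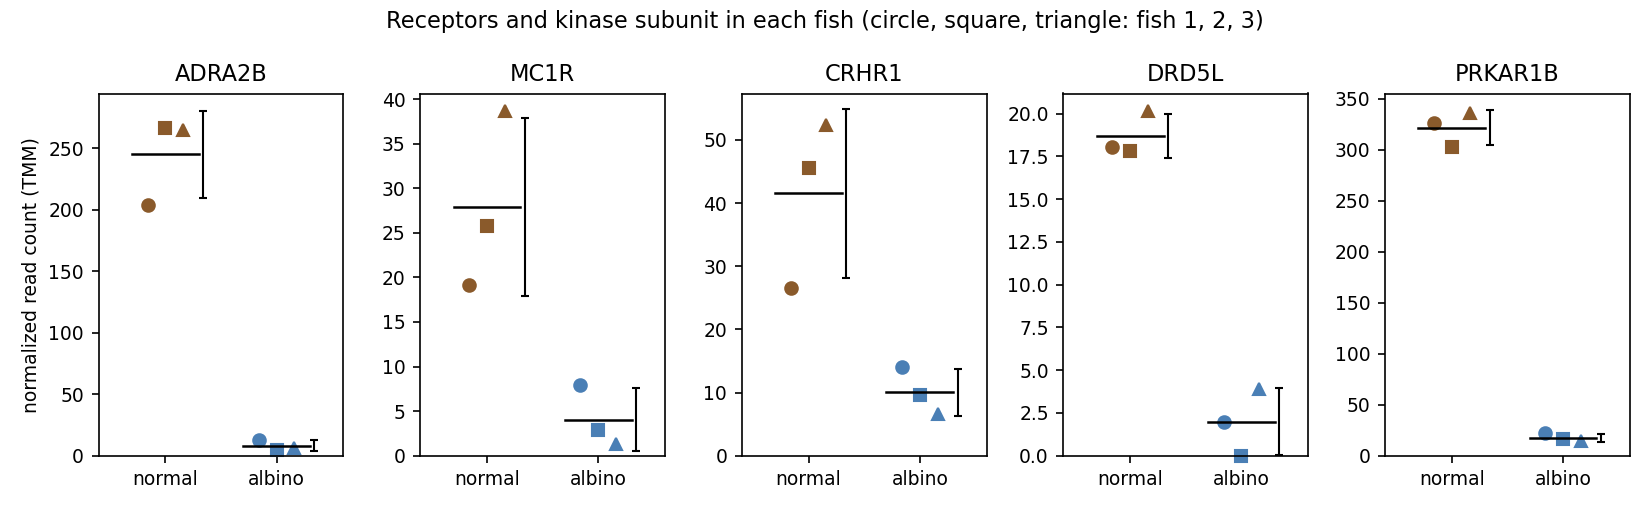
Normalized read count (TMM, y axis, starting at 0 and scaled for each gene) of ADRA2B, MC1R, CRHR1, DRD5L and PRKAR1B in normal (brown) and albino (blue) fish. Each symbol is 1 fish, the line is the group mean and the bar beside it the SD (n = 3), and in every panel the lowest normal fish lies above the highest albino fish.

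ADRA2B was the most abundant receptor of the 4 in normal skin. It was read 192, 269 and 328 times in PO_con1, PO_con2 and PO_con3, and 13, 5 and 5 times in PO_alb1, PO_alb2 and PO_alb3. The albino counts were thus small in all 3 fish, and the lowest normal fish had a normalized count 15.7 times that of the highest albino fish. The mean normalized count was 245 ± 35.5 (SD, n = 3) in normal skin and fell to 8.10 ± 4.31 (SD, n = 3) in albino skin. This was a log2 fold change of -4.89 with a 95% interval of -5.62 to -4.15 (SE 0.32, edgeR adjusted p = 0.000397). In RPKM, the mean of ADRA2B in normal skin was above that of 68.4% of the genes with at least 1 read, and in albino skin above that of 19.97%.

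MC1R, the receptor for melanocyte-stimulating hormone, was far less abundant. It was read 18, 26 and 48 times in the normal fish and 8, 3 and 1 times in the albino fish. PO_con3 was the highest normal fish and PO_alb1 the highest albino fish, and the groups did not overlap, with normalized counts of 19.1 in PO_con1 and 7.98 in PO_alb1 nearest to each other. The means were 27.9 ± 9.96 (SD, n = 3) and 4.06 ± 3.49 (SD, n = 3). The log2 fold change was -2.70 (SE 0.55, 95% interval -3.97 to -1.43), which did not pass the test (edgeR adjusted p = 0.094). With 12 reads in the albino group in all, the size of the difference was poorly fixed, and the interval covers folds of 2.69 to 15.7.

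CRHR1 responds to corticotropin-releasing factor, the hypothalamic peptide that starts the stress response. It was read 25, 46 and 65 times in the normal fish and 14, 10 and 5 times in the albino fish. PO_con1 was the lowest normal fish, with a normalized count of 26.6 against 14.0 in PO_alb1, so the gap between the groups was the narrowest of the 5 genes at 1.90 times. Its means were 41.5 ± 13.4 (SD, n = 3) and 10.03 ± 3.74 (SD, n = 3), and the log2 fold change of -2.02 (SE 0.39, 95% interval -2.92 to -1.12) did not pass the test (edgeR adjusted p = 0.0722). Without PO_con1 the value was -2.25 and passed at an adjusted p of 0.0465, while over all alternatives the adjusted p of CRHR1 ran from 0.00306 to 0.357.

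DRD5L, the dopamine receptor, was the rarest of the 5 genes in normal skin. It was read 17, 18 and 25 times in the normal fish and 2, 0 and 3 times in the albino fish. The normal fish were close together, at normalized counts of 18.1, 17.8 and 20.2, whereas the albino counts were too few to order the fish. Their means were 18.7 ± 1.29 (SD, n = 3) and 1.97 ± 1.96 (SD, n = 3). The log2 fold change of -3.29 (SE 0.63, 95% interval -4.74 to -1.84) did not pass the test (edgeR adjusted p = 0.0672). The 0 in PO_alb2 allows up to 3 counts, so absence from that fish was not shown.

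PRKAR1B encodes a type I regulatory subunit, which holds the catalytic subunits of protein kinase A inactive until cAMP binds. It was read 307, 305 and 416 times in the normal fish and 22, 17 and 11 times in the albino fish. Normalized counts of 326, 302 and 336 made it the most even of the 5 genes among normal fish, with a coefficient of variation of 5.37%, where counting noise alone gives 5.40%. The corresponding figures were 14.5% against 6.17% for ADRA2B, 32.3% against 14.9% for CRHR1, 35.8% against 18.1% for MC1R and 6.88% against 22.4% for DRD5L. These spreads hold for TMM-normalized counts and depend on the scaling. In RPKM, PRKAR1B ran from 13.4 in PO_con1 to 19.96 in PO_con3. The mean normalized count of PRKAR1B was 321 ± 17.3 (SD, n = 3) in normal skin and fell to 17.5 ± 3.94 (SD, n = 3) in albino skin. The log2 fold change was -4.17 with a 95% interval of -4.63 to -3.72 (SE 0.20, edgeR adjusted p = 0.000187), and the nearest fish of the groups were 13.8 times apart.

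The call for the 3 receptors that did not pass depended on the tool. DESeq2 called 5 of 5 genes lower, where it called 1.48% of all genes lower, with log2 fold changes of -2.74 for MC1R, -2.03 for CRHR1 and -3.35 for DRD5L. At an unadjusted p under 0.05 in edgeR, 5 of 5 were lower, as were 5.16% of all genes tested.

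Which receptor dominates was read from RPKM, since counts of genes of different length cannot be compared. The coding lengths behind the RPKM were 972 bases for MC1R, 1254 for CRHR1, 1533 for ADRA2B and 2511 for DRD5L. ADRA2B led in each normal fish, at 6.25, 9.57 and 11.7 RPKM. CRHR1 followed at 0.996, 2.00 and 2.84 RPKM, and MC1R at 0.925, 1.46 and 2.71 RPKM. DRD5L was the lowest in each normal fish, at 0.338, 0.391 and 0.546 RPKM. The order was thus the same in the 3 normal fish. In RPKM, PO_con1 was the lowest and PO_con3 the highest for each of the 4 receptors, but this ranking of the fish depends on the scaling. In normalized counts PO_con2 was the highest for ADRA2B (266.5 against 264.6 in PO_con3) and the lowest for DRD5L (17.8 against 18.1 in PO_con1).

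Expressed as a share of the summed RPKM of the 4 receptors, ADRA2B made up 73.5%, 71.3% and 65.8% in PO_con1, PO_con2 and PO_con3. CRHR1 made up 14.2% ± 2.22 (SD, n = 3), MC1R 12.3% ± 2.50 (SD, n = 3) and DRD5L 3.32% ± 0.573 (SD, n = 3) in normal skin. ADRA2B, at 6.25, 9.57 and 11.7 RPKM, was above the sum of the other 3, which raise cAMP (2.26, 3.85 and 6.10 RPKM), but this holds for these 4 receptors only. With the cAMP-raising receptors ADRB1 and MC5R added, that sum was 6.72, 9.87 and 14.9 RPKM and lay above ADRA2B in each normal fish. Shares and ratios within a fish do not depend on how libraries are scaled.

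The neighbours in this order were compared within each fish, with 95% Clopper-Pearson intervals that cover counting error only. The ratio of ADRA2B to CRHR1 was 6.28 (4.13 to 9.95) in PO_con1, 4.78 (3.49 to 6.69) in PO_con2 and 4.13 (3.16 to 5.47) in PO_con3, so ADRA2B was above CRHR1 beyond counting error in each. The ratio of CRHR1 to MC1R was 1.08 (0.564 to 2.09), 1.37 (0.830 to 2.31) and 1.05 (0.712 to 1.56), and with the 3 fish pooled it was 1.15 (0.873 to 1.51). CRHR1 and MC1R could therefore not be ordered at this depth. MC1R was above DRD5L in each normal fish, by 2.74 times (1.33 to 5.65), 3.73 times (1.97 to 7.23) and 4.96 times (3.00 to 8.40). In PO_con1 this order rests on the coding lengths of 972 and 2511 bases, as the reads were 18 against 17. Those lengths were not checked. PRKAR1B, at 13.4, 14.6 and 19.96 RPKM, was in turn above ADRA2B in each normal fish, by 2.15, 1.52 and 1.70 times, with no interval reaching 1.

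**Figure D2:**
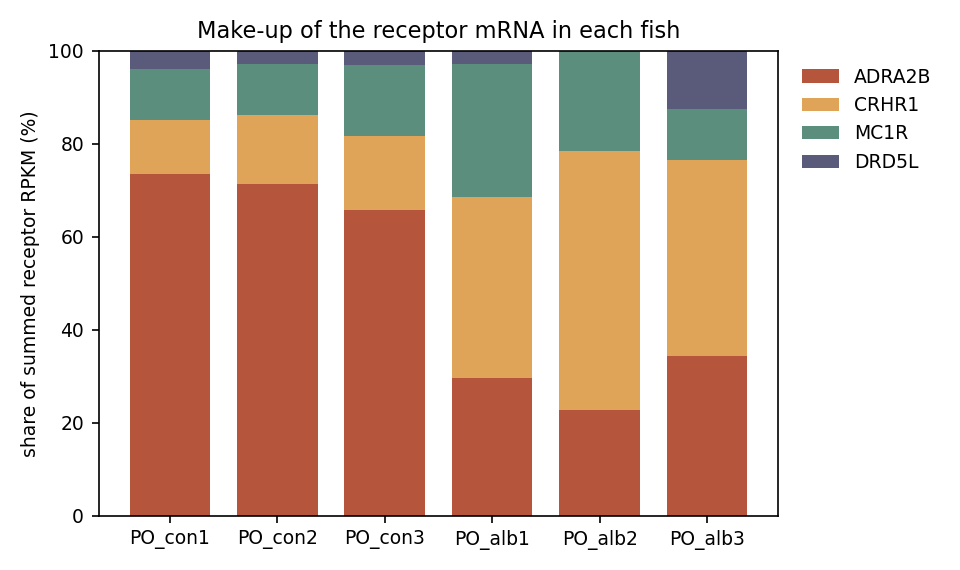
Share of each receptor in the summed RPKM of ADRA2B, CRHR1, MC1R and DRD5L (y axis, percent) in each of the 6 fish (x axis). ADRA2B fills 65.8% to 73.5% of the bar in the normal fish and 22.8% to 34.4% in the albino fish, where the bars rest on 14 to 37 reads.

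In albino skin the mixture was different. The summed RPKM of the 4 receptors was 8.51, 13.4 and 17.8 in the normal fish and 1.601, 0.769 and 0.524 in the albino fish, from 37, 18 and 14 reads. ADRA2B took 29.6%, 22.8% and 34.4% of it, and CRHR1 took 38.9%, 55.7% and 42.1%, so that CRHR1 had the highest value in each albino fish. The mean share of ADRA2B differed by -41.3 percentage points from that in normal fish and that of CRHR1 by 31.4 points. Neither group of shares overlapped the other, and both differences had an exact two-sided permutation p of 0.1, the smallest that 3 fish against 3 can give, or 0.2 adjusted over the 4 shares. Shares within a fish are parts of a whole, so these differences are tied and their tests are not independent. CRHR1 itself was lower in albino skin, at 24.2% of its normal level. MC1R took 28.7%, 21.5% and 10.9% in the albino fish, where its lowest value was level with that of PO_con1 and PO_con2, at 10.9% each (exact permutation p = 0.4). DRD5L took 2.78%, 0% and 12.6%, on either side of the normal fish (exact permutation p = 1).

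The change of lead from ADRA2B to CRHR1 was within counting error in every single albino fish. The ratio of ADRA2B to CRHR1 was 0.760 (0.329 to 1.74) in PO_alb1, 0.409 (0.110 to 1.31) in PO_alb2 and 0.818 (0.188 to 3.55) in PO_alb3. Pooled over the fish it was 4.75 (3.95 to 5.74) in normal and 0.649 (0.359 to 1.16) in albino skin. The loss of the normal lead was thus larger than counting error, whereas a lead of CRHR1 was not detectable at this depth. The ratio of ADRA2B to MC1R showed the same contrast, at 6.76, 6.56 and 4.33 in the normal fish and 1.03, 1.06 and 3.17 in the albino fish, the last from 5 reads against 1. The interval of that ratio lay above 1 in each normal fish and covered 1 in each albino fish. The ratio of PRKAR1B to ADRA2B was 1.75 (1.59 to 1.92) pooled over normal and 2.92 (1.75 to 5.01) pooled over albino fish.

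**Figure D3:**
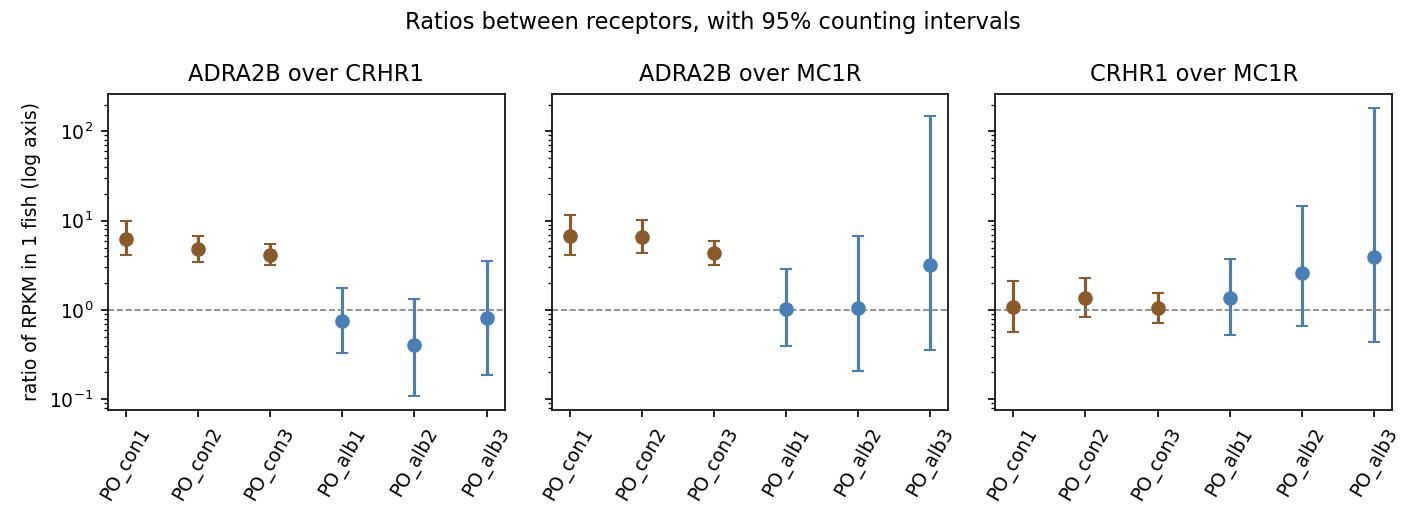
Ratio of RPKM between 2 receptors in each fish (y axis, log scale) for ADRA2B over CRHR1, ADRA2B over MC1R and CRHR1 over MC1R, in normal (brown) and albino (blue) fish, with bars for the 95% counting interval and a dashed line at a ratio of 1. Both ratios of ADRA2B lie above 1 in the 3 normal fish (4.13 to 6.76), while the intervals of the 3 albino fish cover 1.

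Each gene was also set against the melanophore markers. These 8 markers and the 5 genes all stand in the study's list of genes changed in these same libraries. That both were lower thus follows from the choice, and the comparison covers only the sizes of the changes. No marker from outside that list entered it. The log2 fold changes of the 8 markers ran from -5.72 (PMEL) to -1.95 (TRPM1), with a median of -4.56. Of the 8 markers, 4 had a lower log2 fold change than ADRA2B, 5 than PRKAR1B, 6 than MC1R and DRD5L, and 7 than CRHR1. The 5 genes thus lay within the spread of the markers. The comparison was also made in each fish against the average of these unlike markers. The mean log2(RPKM + 0.1) of the 8 markers was 2.13 in normal and -1.55 in albino fish, a difference of -3.67. Relative to this mean, ADRA2B stood at 0.72, 1.45 and 0.96 in the normal fish and at 0.31, 0.04 and -0.21 in the albino fish, a difference of -0.99. The fish of the groups did not overlap, but this compares ADRA2B with an average and not with each marker. PRKAR1B stood at 1.81, 2.05 and 1.72 in the normal and 1.35, 1.75 and 0.96 in the albino fish, and PO_alb2 lay inside the normal range (difference -0.51). The differences of the other 3 receptors had the opposite sign, as these stood closer to the markers or above them in albino fish. The difference was 1.74 for CRHR1, 1.72 for DRD5L and 1.15 for MC1R, and the groups did not overlap, although MC1R in PO_alb3 (-1.05) lay next to PO_con3 (-1.12). The exact two-sided permutation p was 0.1 for each of ADRA2B, CRHR1, DRD5L and MC1R (0.125 adjusted over 5 genes) and 0.2 for PRKAR1B, in a design that cannot go below 0.1. The albino values of DRD5L, TYR and OCA2 lay mostly below the 0.1 added to the RPKM. TYR and OCA2 are among the 8 markers, so that constant shapes the marker mean and with it the differences of all 5 genes. It also acts directly on DRD5L, and on MC1R in PO_alb3, which was at 0.057 RPKM from 1 read. The difference of DRD5L was 1.69 with 1 added and 1.25 on log2 CPM, which uses no RPKM but also adds a count before taking logs. On these 2 scales the difference of MC1R was 1.05 and 1.36. With 1 added in place of 0.1, the difference of PRKAR1B was -1.08 (exact permutation p = 0.1), beyond the -0.82 of ADRA2B, and that of CRHR1 was 1.14. On log2 CPM the difference of PRKAR1B was -0.30 (exact permutation p = 0.3) and that of ADRA2B -0.92. The order of ADRA2B and PRKAR1B thus depends on the scale and on that constant.

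**Figure D4:**
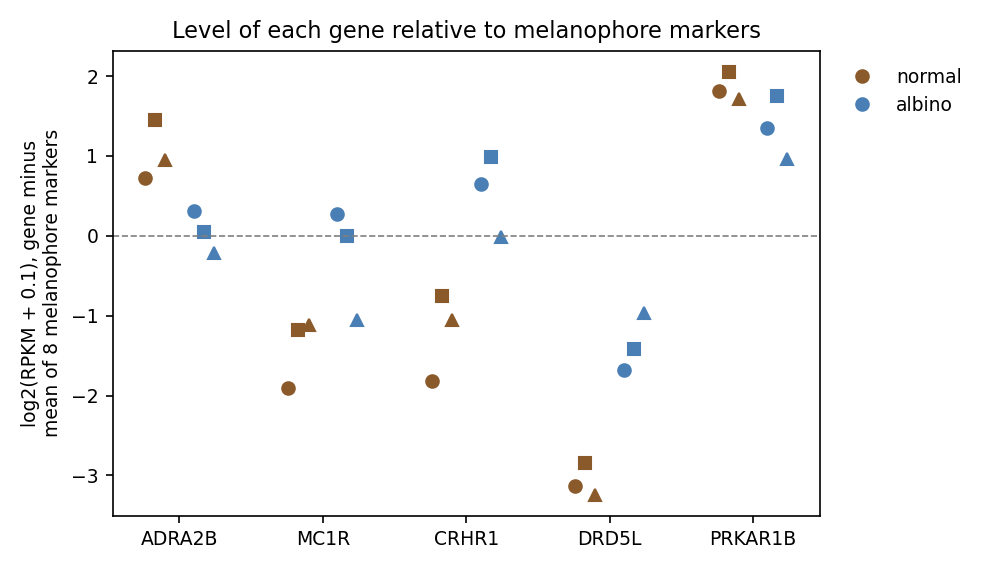
Level of each gene relative to melanophore markers (y axis, log2(RPKM + 0.1) of the gene minus the mean of 8 markers, whose own fold changes differ widely) in normal (brown) and albino (blue) fish, with 1 symbol per fish and a dashed line where gene and markers are equal. Against this average ADRA2B is lower in the albino fish (difference -0.99), PRKAR1B overlaps, and MC1R, CRHR1 and DRD5L are higher (1.15, 1.74 and 1.72, the last from albino values below the 0.1 added).

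A further 8 genes of hormone and cAMP signalling were picked from the study's list of changed genes. Of these, 8 of 8 were called lower, where 0.91% of all genes tested were, with a median log2 fold change of -2.71. They were listed on the same fish and are not all receptors of that list, so the calls and the shared direction follow from the choice. Of 4 receptors left outside and looked up after these values were seen, the prostaglandin receptor PTGER3 (GS_013015) rose by 2.36 on the log2 scale (edgeR adjusted p = 0.0258). The glutamate receptor GRM3 (GS_006200) was at 1.48 (adjusted p = 0.151), and the orphan receptors GPR61 (GS_010316) and GPR21 (GS_002614) were lower, at -2.07 and -2.52 (adjusted p = 0.0349 and 0.00868). The study's list holds further receptors that were not looked up, among them P2RY8, listed as higher in albino skin, and EDNRB, listed as lower. The summed RPKM of the 8 genes picked from the list was 22.6 to 44.7 in normal and 3.18 to 6.73 in albino fish. Among the receptors of these 8 genes, the melanocortin receptor MC5R was read 19, 34 and 38 times in normal fish and 0 times in each albino fish. It was at least 26.4-fold lower against a floor of 3 counts over the albino group (edgeR adjusted p = 0.0137). MC5R had a mean of 1.54 RPKM in normal skin, next to 1.70 RPKM for MC1R. MCHR2, a receptor for melanin-concentrating hormone, which pales teleost fish, fell by 3.21 on the log2 scale (edgeR adjusted p = 0.027). The beta-adrenergic receptor ADRB1, which raises cAMP in answer to the same amines that ADRA2B binds, fell by 2.21 (adjusted p = 0.0275). ADRB1 was at 4.88 RPKM in normal and 0.957 RPKM in albino skin, so the mean of ADRA2B was above that of ADRB1 in normal skin (9.19 RPKM) and below it in albino skin (0.276 RPKM). The prolactin receptor PRLR fell by 2.13 (adjusted p = 0.0219).

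Downstream of the receptors, ADCY5, an adenylate cyclase that makes cAMP, fell by 3.38 on the log2 scale (edgeR adjusted p = 0.000653), from 3.97 to 0.340 RPKM. The phosphodiesterases PDE8B and PDE10A, which break cAMP down, fell by 1.92 and 1.84 (adjusted p = 0.00601 and 0.00164). RGS8, which shortens signalling through inhibitory G proteins, fell by 4.77 (adjusted p = 0.00164). This 1 cyclase and these 2 phosphodiesterases were thus lower together, which follows from their choice out of the study's list. Other cyclases and phosphodiesterases were not looked up. The number of these 8 genes called was 4 without PO_con2 or without PO_con3, and 5 without PO_alb2.

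**Figure D5:**
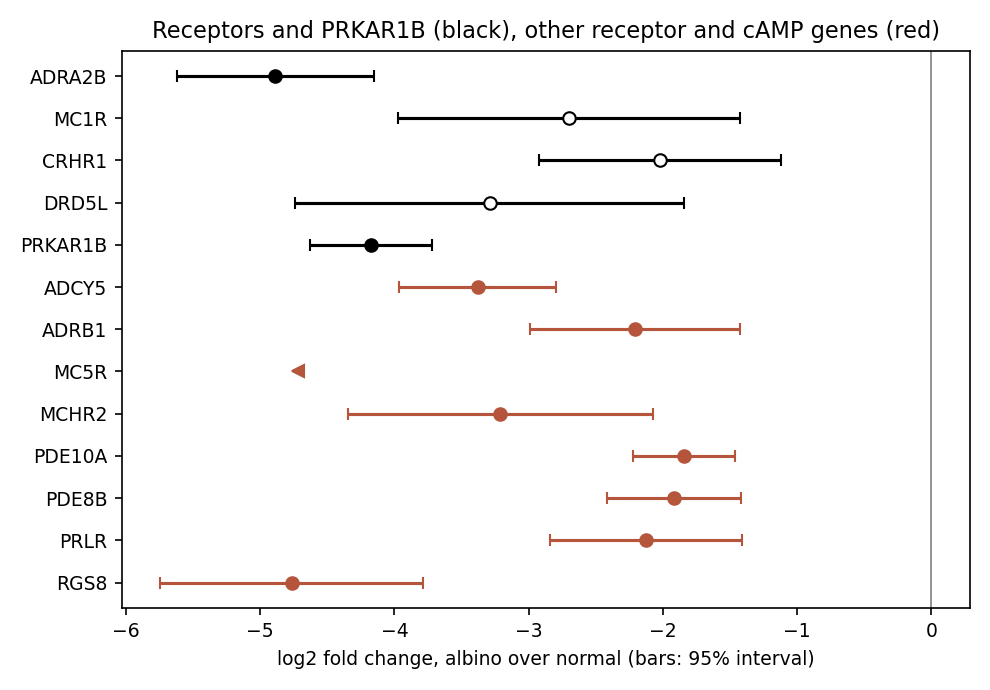
Log2 fold change of albino over normal (x axis) with its 95% interval for the 4 receptors and PRKAR1B (black) and the other 8 genes (red), where filled points passed the edgeR test and open points did not. The triangle of MC5R marks a bound (at least 26.4-fold lower), and all values lie below 0, from -4.89 for ADRA2B to -1.84 for PDE10A among the fitted ones.

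The genes with the pattern across the 6 libraries most like that of each gene were found by the root mean square difference of log2 CPM (counts scaled by the normalized library size), centred on the mean of each gene and given as a description. For ADRA2B they were FAM123A (0.156), RGS8 (0.311) and GS_002818 (0.319), where the median over all genes was 2.39. For PRKAR1B they were VIM (0.206), the intermediate filament protein vimentin, the vitamin C transporter SLC23A1 (0.212) and MITF (0.281), the transcription factor of the melanocyte lineage, against a median of 2.06. SLC23A1 and MITF were read 0 and 1 times in the albino group and GS_002818 was read 2, 0 and 0 times, and the count added before taking logs shapes the values of all 3. For MC1R the nearest were IFI30 (0.0963), SLC6A13 (0.119) and ADRB1 (0.211), against a median of 1.34. For CRHR1 they were the new gene Novel00096 (0.103), GS_018722 (0.140) and NPDC1 (0.179), against a median of 1.03. For DRD5L they were SLC45A2 (0.312), a melanosomal transporter and 1 of the 8 markers, the gap junction protein GJA5 (0.318) and ictacalcin (0.368), against a median of 1.37. The albino counts of MC1R (8, 3 and 1) and DRD5L (2, 0 and 3) were small too, so the added count also shapes their distances. The edgeR log2 fold changes of the neighbours of DRD5L were -2.62, -2.19 and -2.52, against -3.29 for DRD5L. Those of the neighbours of MC1R were -2.19, -2.17 and -2.21, against -2.70 for MC1R. VIM, SLC23A1 and MITF were at -3.87, -7.71 and -6.17, against -4.17 for PRKAR1B. FAM123A, RGS8 and GS_002818 were at -4.77, -4.77 and -6.17, against -4.89 for ADRA2B. Novel00096, GS_018722 and NPDC1 were at -1.95, -1.86 and -2.35, against -2.02 for CRHR1. None of these nearest genes was another of the 5.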

How the data were processed

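The authors used Bowtie2 2.0.6 for the genome index, TopHat2 2.0.9 for alignment of the paired reads, Cufflinks 2.1.1 for transcripts and HTSeq for counting. The deposited read counts are whole numbers with no scaling. The deposited RPKM are the authors' counts scaled by coding length and by the counts of the library, and the length was recovered from them. The strand setting and the genome build are not given in the sources used here. The miRNA libraries were not analysed here, and no sequence is printed.

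The counts of all genes were tested between albino and normal fish in R 4.3.3 with edgeR 4.0.16 (filterByExpr, TMM, quasi-likelihood test) and Benjamini-Hochberg adjustment over 16260 genes. DESeq2 1.42.0 and limma 3.58.1 on log2(RPKM + 1) and log2(RPKM + 0.1) were alternatives, as were a robust variance, RLE scaling, library totals alone, no filter or a stricter filter (10 counts in 3 libraries), a replicate block and leaving out each library. Shares and differences from the markers were tested by exact permutation in Python 3.11.15. The test was tried first on simulated counts. Named genes are the 5 genes, the lists and the 3 nearest genes of each by centred log2 CPM (prior count 2). These genes, lists and markers were chosen with earlier results of the same data known.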

Additional observations from a re-analysis of the deposited data

How the results depend on the processing

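The alternatives reused the same libraries, or all but 1 of them, and the normalized counts of the groups did not overlap for any of the 5 genes. A sign that holds across the alternatives is thus no independent evidence of a direction. The 5 genes had log2 fold changes below 0 in all 75 values from 15 alternatives, of which 71 kept their side of the threshold and 4 newly passed. Those 4 were, with DESeq2, MC1R at -2.74, CRHR1 at -2.03 and DRD5L at -3.35 (adjusted p = 0.00383, 0.00306 and 0.00477), and CRHR1 at -2.25 without PO_con1. Leaving out 1 library at a time gave -5.43 to -4.59 for ADRA2B, -4.37 to -4.07 for PRKAR1B, -3.61 to -2.36 for MC1R, -2.33 to -1.80 for CRHR1 and -4.10 to -2.66 for DRD5L, for which the low counts limit the precision. Fold changes were smaller with limma on log2(RPKM + 1), where low values are compressed, at -2.97 for ADRA2B, -3.23 for PRKAR1B, -1.10 for MC1R, -1.01 for CRHR1 and -0.46 for DRD5L, and DRD5L was at -1.95 on log2(RPKM + 0.1). The ADRA2B share stayed at 68.6% to 72.4% in normal fish and the difference in share at -44.0 to -38.2 points. Without 1 library, the differences from the markers were -1.16 to -0.79 for ADRA2B, 1.44 to 2.02 for CRHR1 and 1.53 to 1.88 for DRD5L. They were 0.88 to 1.54 for MC1R and -0.70 to -0.31 for PRKAR1B. Other scales gave values outside these ranges. On log2(RPKM + 1) they were 1.14 for CRHR1 and -1.08 for PRKAR1B, and on log2 CPM 1.25 for DRD5L and -0.30 for PRKAR1B. The number of all genes called, 169, was 106 with library totals alone, 356 with DESeq2, 96 with limma on log2(RPKM + 1), 107 on log2(RPKM + 0.1) and 69 to 152 without 1 library. The lowest of these was without PO_con2. The 8 other receptor and cAMP genes called were 5 with library totals alone, 5 with limma on log2(RPKM + 1) and 4 to 7 without 1 library. Library totals alone moved the median of all genes to -0.13. The cause of these differences was not tested.

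Same-numbered libraries showed no common positive correlation in their deviations from the group mean (-0.169, 0.181 and -0.442). Deviations from the mean of so few fish are tied to each other, so these values cannot settle whether replicate numbers pair the fish. With the replicate block 57 genes were called in all and 3 of the 8 other receptor and cAMP genes, while ADRA2B and PRKAR1B stayed called (adjusted p = 0.0119 and 0.00331).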
